A study of Mus musculus with 65 samples.

Results

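AMPA and NMDA receptors are the glutamate-gated channels that carry fast excitatory transmission, and the transcripts of their subunits were described in single HSD2 neurons of the mouse brainstem. The genes were chosen by name: the AMPA subunits Gria1, Gria2, Gria3 and Gria4, and the NMDA subunits Grin1, Grin2a, Grin2b, Grin2d and Grin3a. Of these 9 genes, 8 are among the 11875 uniquely named genes used here. Grin2a is not in the table and was not analysed here.

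The neurons were red cells picked by hand from the NTS (nucleus of the solitary tract), where visceral signals enter the brainstem, and each of the 65 samples is a single neuron. The low-sodium group has 32 neurons from mice on a low sodium diet, and the chow group has 33 neurons from mice on standard chow. All animals of both groups were male, of mixed strain, and carried Hsd11b2-Cre with the Ai9 reporter, in which any cell that has made Cre turns on the red protein tdTomato, so the label also marks cells that used the driver only in the past. The protocol text names the tissue digested with papain as Arc-ME, whereas the tissue label reads NTS, and the tissue label was followed. Ages and animals are not given, so each diet counts as 1 sample. The 32 and 33 cells are not replicates of a diet, and no test between diets was run. Every SD is the spread between cells.

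AMPA receptors are assemblies of GluA1 to GluA4, encoded by Gria1 to Gria4. In GluA2, RNA editing exchanges a glutamine in the pore for an arginine, and channels that hold the edited subunit pass little calcium. NMDA receptors need GluN1, encoded by Grin1, together with GluN2 subunits, which bind glutamate, or GluN3 subunits, which bind glycine. In the NTS, vagal afferents release glutamate onto neurons that carry both receptor kinds.

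Values are log2(CPM + 1), where CPM are read counts scaled by the authors. Reads per neuron over the listed genes ran from 50544 to 5319546 in low sodium (median 694528) and from 50078 to 3245522 in chow (median 602321), and a single read stood for 0.160 to 16.1 CPM. In 17 neurons (12 low-sodium, 5 chow) the CPM summed to more than scaling to the cell's own reads can give, so the scale of the deposited values is not known for any neuron. The excess was largest in 9 low-sodium neurons, with sums over 1200000, and results are also given without these 9. The sums of the other 8 were at most 1147330 in low sodium and 1058070 in chow. The remaining 23 low-sodium neurons were deeper, with a median of 1089190 reads. All 65 neurons had at least 3 of 6 neuron markers above 10 CPM, and all had Hsd11b2 and Slc17a6, the vesicular glutamate transporter VGLUT2. At least 3 astrocyte or oligodendrocyte markers exceeded 10 CPM in 14 low-sodium and 18 chow neurons, 2 of them among the 9. The astrocyte list (7 of 7 markers in the table) summed to 0 to 1056 CPM in low sodium and 0 to 3698 CPM in chow, and the oligodendrocyte list (5 of 6) to 17.1 to 13560 CPM in low sodium and 0 to 6950 CPM in chow. The endothelial marker Cldn5 was at 0 in 30 of 32 low-sodium and 27 of 33 chow neurons, and no microglial marker is in the table.

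The stretch that codes for the pore loop is shown for 7 of the transcripts because the residue in it sets which ions pass. The sequences are 63 bases, 5′ to 3′ on the coding strand, from GENCODE M21 transcripts of GRCm38, and capitals mark the codon of the pore-site residue. In the AMPA subunits this is the Q/R site and the genomic codon is for glutamine. Gria2 is the transcript that is edited there, and editing reads the middle base of its capitals as G.
Gria1: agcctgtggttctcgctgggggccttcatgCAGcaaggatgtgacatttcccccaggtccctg
Gria2: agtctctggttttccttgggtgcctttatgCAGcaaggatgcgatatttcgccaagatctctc
Gria3: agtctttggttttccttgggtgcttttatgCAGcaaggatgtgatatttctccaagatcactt
Gria4: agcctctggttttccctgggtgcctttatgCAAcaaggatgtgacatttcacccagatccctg
The codons lie at chr11:57243094-57243096 (plus strand, exon 11) for Gria1, chr3:80706911-80706913 (minus strand, exon 11) for Gria2, chrX:41610265-41610267 (plus strand, exon 11) for Gria3 and chr9:4464137-4464139 (minus strand, exon 12) for Gria4. They code for residues 600, 607, 612 and 608, counted from the first methionine. Between pairs of AMPA subunits, 49 to 57 of the 63 bases were identical, most between Gria2 and Gria3.

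In GluN1 and the GluN2 subunits the same place holds an asparagine, the residue at which magnesium blocks the channel, and in Grin3a it holds a glycine.
Grin1: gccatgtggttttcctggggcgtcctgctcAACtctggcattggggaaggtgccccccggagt
Grin2d: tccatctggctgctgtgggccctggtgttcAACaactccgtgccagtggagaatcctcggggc
Grin3a: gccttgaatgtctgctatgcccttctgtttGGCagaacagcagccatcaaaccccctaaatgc
These 3 genes are on the minus strand. The codons lie at chr2:25297386-25297388 (exon 14) for Grin1, chr7:45854393-45854395 (exon 8) for Grin2d and chr4:49770584-49770586 (exon 3) for Grin3a, and code for residues 637, 639 and 729. Grin1 and Grin3a shared 23 of the 63 bases. Gene-level values show neither the edited base nor the flip and flop exons of AMPA subunits, so the results below concern the amount of each transcript alone.

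Gria2 and Gria1 were the broadest AMPA transcripts and were found in all 65 neurons (100%, exact 95% interval 94.5% to 100%). Gria2, which lowers calcium entry when edited, had a lowest, median and highest log2(CPM + 1) of 5.93, 8.70 and 9.68 in low-sodium neurons and 5.06, 8.09 and 9.37 in chow neurons. No neuron came near 0, and the lowest values stood in the shallowest libraries, low-sodium neuron 35 (50544 reads) and chow neuron 45 (50078 reads). The mean level was 8.49 ± 0.85 in low sodium and 7.99 ± 0.97 in chow. The groups overlapped over nearly their whole range.

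Gria1, the subunit known for activity-dependent delivery to synapses, had 2.47, 7.92 and 9.39 in low-sodium neurons and 5.06, 7.71 and 11.00 in chow neurons as the lowest, median and highest log2(CPM + 1). Single neurons stood far from the rest at both ends. Low-sodium neuron 7 held 4.52 CPM of Gria1 with 759265 reads, and chow neuron 21 held 2048 CPM. Both had at least 3 astrocyte or oligodendrocyte markers above 10 CPM. The mean level was 7.63 ± 1.42 in low sodium and 7.68 ± 1.15 in chow.

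Gria4, a subunit with fast gating kinetics, was found in 62 neurons (95.4%, 87.1% to 99.0%), which were 29 low-sodium and 33 chow neurons. Its lowest, median and highest log2(CPM + 1) were 0, 6.77 and 10.24 in low sodium and 3.99, 6.64 and 8.30 in chow. The 5 neurons above 8.30 were all low-sodium neurons with summed CPM over 1200000. Without those 9 neurons the highest low-sodium value was 7.77.

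Gria3, which often pairs with GluA2, was the least widespread AMPA transcript, found in 58 neurons (89.2%, 79.1% to 95.6%), 26 of 32 in low sodium and 32 of 33 in chow. Its lowest, median and highest log2(CPM + 1) were 0, 6.18 and 8.52 in low-sodium neurons and 0, 5.75 and 8.03 in chow neurons. The median was thus higher in low sodium while more low-sodium neurons were at 0. Neurons at 0 were both deep and shallow: low-sodium neurons 10 and 17 had 4000485 and 1937291 reads and no Gria3, and low-sodium neuron 35 and chow neuron 9 had 50544 and 129751. In that order, these neurons had 8834, 6048, 4700 and 7386 genes detected, beside a median of 8149 over all neurons. Every neuron without Gria3 but neuron 10 was below that median. The part of genes detected in these zeros was not tested.

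Among the NMDA transcripts, Grin1 was found in 64 neurons (98.5%, 91.7% to 100%). It was missing in low-sodium neuron 45 alone, a neuron with summed CPM over 1200000, 535631 reads and markers of another cell type. Its lowest, median and highest log2(CPM + 1) were 0, 7.05 and 9.73 in low sodium and 2.89, 6.90 and 8.38 in chow. The ranges overlapped, and the mean level was 6.72 ± 1.75 in low sodium and 6.64 ± 1.19 in chow. Reads of Grin1 cannot be told apart from those of its antisense gene Grin1os where strand was not counted, and the counting of strand is not given in the sources used here.

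Grin2b, the GluN2 subunit known for slow decay, was found in 62 neurons (95.4%, 87.1% to 99.0%) and missing in low-sodium neurons 6, 35 and 45. Its lowest, median and highest log2(CPM + 1) were 0, 5.65 and 7.70 in low sodium and 2.81, 5.78 and 7.85 in chow. Low-sodium neuron 35 also lacked Gria3 and Gria4 and was the second shallowest library, and neuron 6 also lacked Gria4 at 691126 reads. Exons of Grin2b and Grin2d overlap predicted genes on the other strand, with the same limit on reads, and those of Gria2, Gria3 and Gria4 overlap predicted genes on their own strand, from which counting by strand would not separate them.

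Grin3a and Grin2d divided the neurons. Grin3a, whose product forms glycine-binding subunits with low calcium entry, was found in 50 neurons (76.9%, 64.8% to 86.5%), 24 of 32 in low sodium and 26 of 33 in chow. Its lowest, median and highest log2(CPM + 1) were 0, 5.21 and 9.63 in low sodium and 0, 5.69 and 8.25 in chow. The 15 neurons at 0 had a median of 759265 reads and the neurons with the transcript one of 648735. They included deep libraries, low-sodium neurons 12 and 16 with 4682466 and 5319546 reads, and shallow ones, chow neurons 45 and 68 with 50078 and 95301 reads.

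Grin2d, the GluN2 subunit with the slowest decay and a feature of brainstem and midbrain neurons, was found in 22 neurons (33.8%, 22.6% to 46.6%), 11 in each diet. Its median was 0 in both diets, and its highest log2(CPM + 1) was 7.43 in low sodium and 6.06 in chow. The 4 highest low-sodium values (5.26 to 7.43) came from neurons with summed CPM over 1200000, and without these 9 neurons the highest was 4.26, in low-sodium neuron 3. When every neuron was thinned to 50000 reads, Grin2d was left in 15.4% of neurons, Grin3a in 66.2%, Gria3 in 76.9%, Grin2b in 83.1% and Grin1 in 90.8%, so these shares depend on depth.

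**Figure D1:**
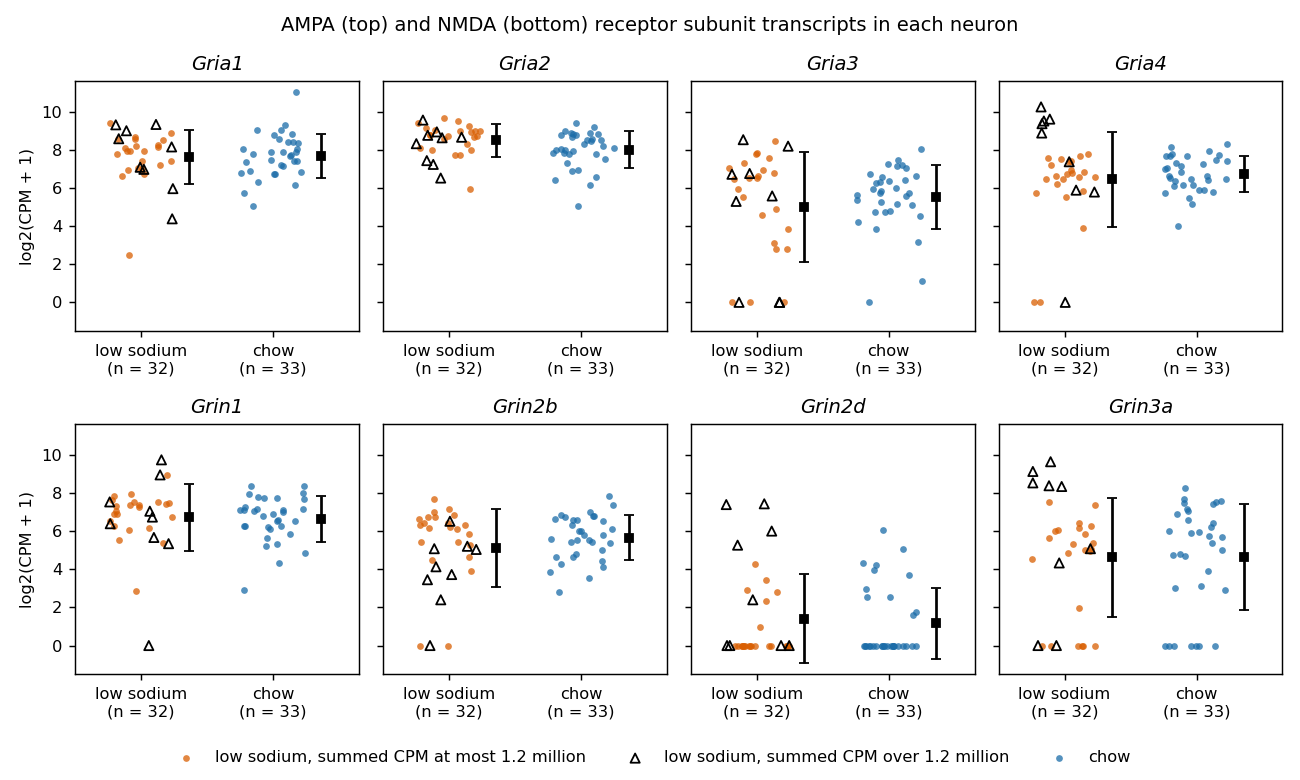
Level of each subunit transcript as log2(CPM + 1) (vertical axis) in every neuron, low sodium left of chow, with the AMPA subunits above and the NMDA subunits below. Points are neurons, open triangles are the 9 low-sodium neurons with summed CPM over 1200000, and squares with bars are the mean ± SD over cells. Gria1 and Gria2 are above 0 in all 65 neurons, Grin2d is at 0 in 43, and the 5 highest Gria4 values are triangles.

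Levels of different subunits were compared as CPM per kilobase of transcript, since longer transcripts give more reads. Per kilobase of the longest coding transcript, the mean over 65 neurons was highest for Gria1 (50.4 ± 49.7 CPM per kb), then Gria2 (34.3 ± 17.3), Grin1 (34.2 ± 30.7) and Gria4 (30.3 ± 36.7). Gria3 (15.7 ± 16.0), Grin3a (11.9 ± 18.5), Grin2b (2.61 ± 2.02) and Grin2d (1.90 ± 5.75) followed.

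At the top of this order, neither neighbour was the higher one in a clear majority of neurons. The intervals below cover counting error over cells only, as cells are not replicates. Gria1 exceeded Gria2 in 38 of 65 neurons (58.5%, 45.6% to 70.6%), Gria2 exceeded Grin1 in 37 (56.9%, 44.0% to 69.2%) and Grin1 exceeded Gria4 in 38. The interval of each of these shares includes an even split. So does that of Gria3 over Grin3a, lower in the order (38 neurons, 58.5%, 45.6% to 70.6%). Gria4 exceeded Gria3 in 47 neurons (72.3%, 59.8% to 82.7%), Grin3a exceeded Grin2b in 43 (66.2%, 53.4% to 77.4%) and Grin2b exceeded Grin2d in 51 (78.5%, 66.5% to 87.7%), and these intervals do not.

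The order depends on the length used, because the longest transcripts of Gria2 (10371 bases) and Grin2b (24060 bases) are mostly untranslated, with coding lengths of 2649 and 4446 bases. Per kilobase of coding sequence, Gria2 came first (134 CPM per kb), before Gria1 (103), Gria4 (60.9) and Grin1 (50.9). Gria2 then exceeded Gria1 in 46 of 65 neurons (70.8%, 58.2% to 81.4%). Grin3a averaged 26.2 CPM per kb and Grin2b 14.1, but Grin3a exceeded Grin2b in 30 neurons (46.2%, 33.7% to 59.0%), an interval that includes an even split. Which transcripts the neurons make cannot be read from gene-level values, so the place of Gria2 relative to Gria1 rests on the length chosen.

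**Figure D2:**
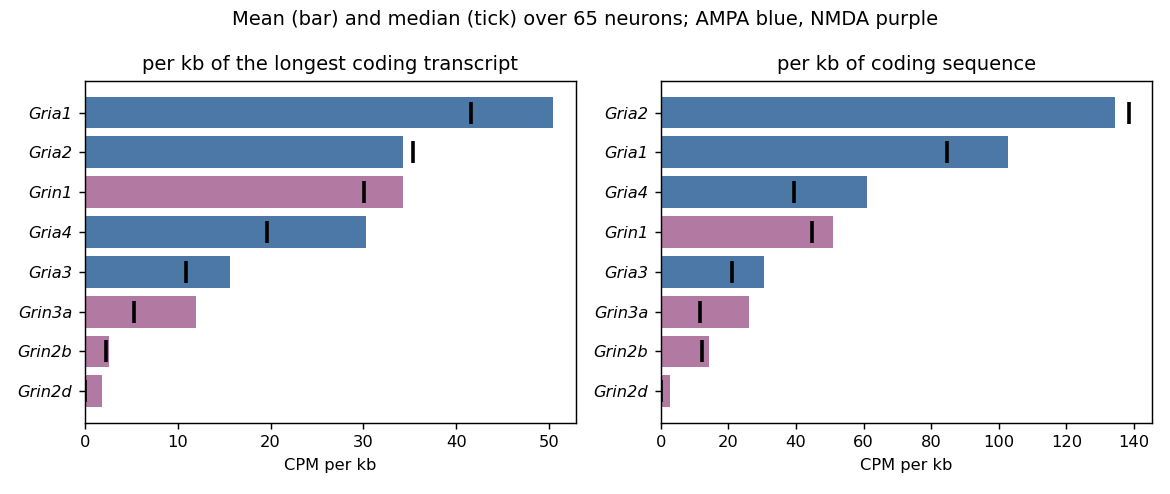
Mean (bars) and median (ticks) CPM per kilobase over 65 neurons (horizontal axis) for each subunit, AMPA in blue and NMDA in purple, per kilobase of the longest coding transcript (left) and of coding sequence (right). Gria1 leads on the left with 50.4 CPM per kb and Gria2 on the right with 134 CPM per kb, while Grin2d is last on both.

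The subunit make-up of a neuron was taken as the share of each subunit in its summed AMPA or NMDA CPM per kilobase, which does not depend on the total the neuron was scaled to. It is a make-up of transcripts, not of assembled receptors. AMPA transcripts made up 71.3 ± 12.8% of both families together, from 40.3% in chow neuron 63 to 98.3% in low-sodium neuron 18. Both of these neurons had at least 3 astrocyte or oligodendrocyte markers above 10 CPM. Among AMPA transcripts, Gria1 held 37.8 ± 18.7%, Gria2 28.8 ± 13.3%, Gria4 21.6 ± 15.1% and Gria3 11.8 ± 9.81% (mean ± SD, n = 65 cells). With coding length, Gria2 held 42.5 ± 16.0% and Gria1 30.9 ± 17.3%.

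All 4 AMPA transcripts were found together in 57 of 65 neurons (87.7%, 77.2% to 94.5%), 25 of 32 in low sodium and 32 of 33 in chow. Yet the leading subunit differed between neurons: Gria1 led in 33, Gria2 in 21, Gria4 in 8 and Gria3 in 3. With coding length Gria2 led in 41, Gria1 in 18 and Gria4 in 6. The Gria2 share ran from 5.17% in chow neuron 21, where Gria1 held 87.7%, to 72.6% in low-sodium neuron 7, where Gria1 held 1.23%. Both neurons had at least 3 astrocyte or oligodendrocyte markers above 10 CPM. Gria2 held over 25% of AMPA transcripts in 42 neurons (64.6%, 51.8% to 76.1%), 24 of 32 in low sodium and 18 of 33 in chow, and with coding length in 55 neurons, 27 in low sodium and 28 in chow.

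Grin1 made up 66.4 ± 24.3% of NMDA transcripts, Grin3a 22.3 ± 23.5%, Grin2b 6.94 ± 5.90% and Grin2d 4.35 ± 14.6%. With coding length the share of Grin2b was 18.3 ± 13.5% and that of Grin1 53.7 ± 23.1%. The combination of Grin1, Grin2b and Grin3a was found in 34 neurons, all 4 transcripts in 14, Grin1 with Grin2b alone in 7, these with Grin2d in 7, Grin1 with Grin3a alone in 2 and Grin2d alone in 1. Grin2b was found in 48 of the 50 neurons with Grin3a, a share close to its 95.4% over all neurons. Grin1 led in 51 neurons, Grin3a in 12 and Grin2d in 2, and with coding length Grin1 led in 47, Grin3a in 14, Grin2b in 3 and Grin2d in 1.

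The 9 low-sodium neurons with summed CPM over 1200000 had another make-up, and since shares within a neuron do not carry the scale, the unknown total does not enter it. Gria4 held 36.7 ± 26.7% of their AMPA transcripts, against 15.2 ± 7.65% in the other 23 low-sodium neurons and 21.9 ± 12.0% in chow. Grin1 held 40.3 ± 34.6% of their NMDA transcripts, against 76.7 ± 12.0% and 66.4 ± 22.8%, and Grin3a 39.4 ± 37.2%, against 13.7 ± 11.8% and 23.6 ± 22.9%. Neuron 51 had 92.5% Gria4 and 89.8% Grin3a, neuron 45 had Grin2d as its sole NMDA transcript, and neuron 42 had 54.4% Gria4 and 50.4% Grin2d. Of these, neuron 45 alone carried markers of another cell type. Grin1 led in 2 of the 9 and in all 23 of the other low-sodium neurons, with coding length in 3 of the 9 and 21 of the 23, and with no length correction in 2 of the 9 and 16 of the 23.

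**Figure D3:**
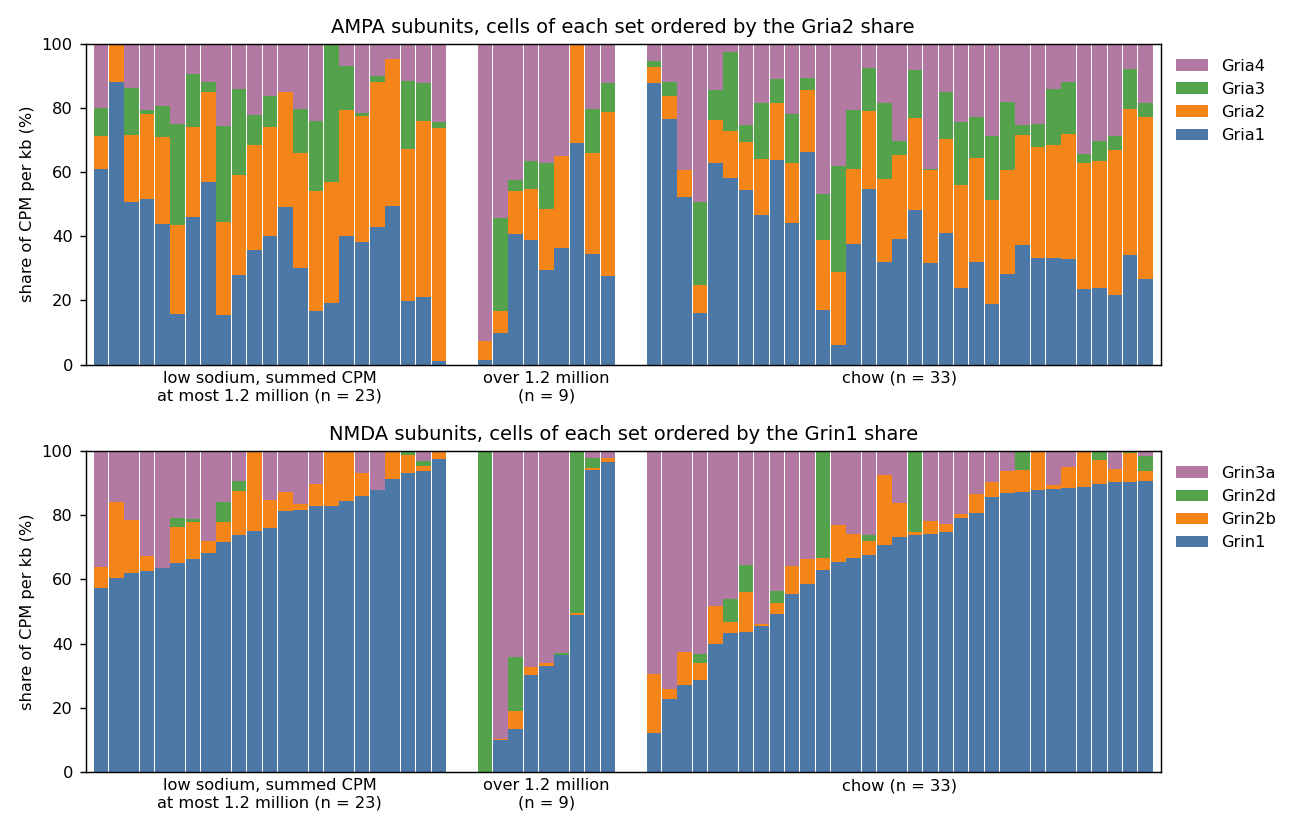
Share (%) of each AMPA subunit (top) and NMDA subunit (bottom) in the summed CPM per kilobase of its family, a bar per neuron, for low-sodium neurons with summed CPM of at most 1200000 (n = 23), the 9 low-sodium neurons over it, and chow neurons (n = 33). Bars are ordered by the Gria2 share (top) or the Grin1 share (bottom) within each set. Grin1 holds at least 57.3% in all 23 bars of the first set (at least 35.4% with coding length, not drawn) and leads in 26 of the 33 chow bars.

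The subunits hardly moved together from neuron to neuron. Over 65 neurons the Spearman rho of log2(CPM + 1) ran from -0.16 to 0.35 over the 28 pairs, with a median of 0.09. The highest were Gria2 with Gria3 (0.35) and Gria1 with Grin3a (0.32). Neurons share depth and the scaling total, and these weak values are a description. Gria1 averaged 7.94 ± 1.03 in the 50 neurons with Grin3a and 6.72 ± 1.60 in the 15 without it.

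The genes most like Gria2 across the 65 neurons, among 3589 found in at least 59 neurons, were Camta1 (rho 0.62), a calmodulin-binding transcription activator, Scn1a (0.61), a voltage-gated sodium channel subunit, and Mbnl1 (0.55), a splicing regulator. Over the 56 neurons without the 9 they ranked 1, 4 and 5. For Grin1 they were Mink1 (0.45), a kinase, Tln2 (0.44), which links integrins to actin, and Cabin1 (0.44), a calcineurin inhibitor, and over the 56 neurons they had rho 0.43, 0.35 and 0.39 and ranked 11, 54 and 27.

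The low-sodium diet was the study's comparison, and none of the 8 subunits differed between diets by 1 or more in mean log2(CPM + 1). Over all genes, 10.2% passed that size (9.11% without the 9 neurons), so none of 8 is close to the background. Of the genes past it, 429 were higher and 778 lower in low sodium, and 262 were higher and 1138 lower with the CPM of each neuron rescaled to the same sum, which moved the median difference over all genes to -0.26. The largest subunit differences were those of Grin2b (-0.55), Gria3 (-0.51) and Gria2 (0.50), low sodium minus chow, beside a median of -0.12 over all genes. The SD over cells exceeded the difference in each of them.

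Only the difference of Gria2 kept its sign in all 13 other settings tried, which reuse the same cells. The Gria2 difference ran from 0.17 with every neuron thinned to 50000 reads to 0.71 with thinning and without the 9 neurons. Without the 9 neurons alone, its mean level was 8.60 in low sodium and 7.99 in chow, a difference of 0.61. Its share of AMPA transcripts was 31.4 ± 14.5% in low sodium and 26.4 ± 11.7% in chow, and 34.8 ± 13.3% in low sodium without the 9 neurons. The difference in share, 4.98 percentage points, ranged from 2.82 without the neurons with markers of another cell type to 8.39 without the 9. These differences lie within the spread between cells.

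Every other subunit changed sign in some setting. Gria3 had a mean level of 5.01 ± 2.87 in low sodium and 5.51 ± 1.68 in chow, a difference of -0.51, but the difference between the medians over cells was 0.43 and that with a pseudocount of 0.1 CPM was -1.01. Gria4 averaged 6.45 ± 2.48 in low sodium and 6.73 ± 0.95 in chow, a difference of -0.28, which was -0.66 without the 9 neurons and 0.68 when mean CPM (plus 1) were compared as a log2 ratio. Grin2b averaged 5.10 ± 2.06 in low sodium and 5.65 ± 1.18 in chow, and its difference was -0.10 without the 9 neurons and 0.21 without them and with thinning. The neurons at 0 and the 9 neurons thus weigh on each of these means.

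Grin1 differed by 0.08, Gria1 by -0.05 and Grin3a by -0.03, and all 3 took both signs among the other settings. Grin3a averaged 4.62 ± 3.11 in low sodium and 4.64 ± 2.79 in chow, and differed by -0.54 without the 9 neurons. Grin2d averaged 1.41 ± 2.33 in low sodium and 1.17 ± 1.86 in chow, a difference of 0.24 that was -0.45 without the 9 neurons and 1.32 as a log2 ratio of mean CPM (plus 1).

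In both diets, Gria2 and Gria3 averaged higher, and Grin2b lower, in neurons with markers of another cell type than in neurons without. These differences were smaller than the SD over cells. Grin1 also averaged lower with the markers in both diets. In low sodium, Grin1 averaged 6.39 ± 2.45 in the 14 neurons with markers of another cell type and 6.98 ± 0.90 in the 18 without, and in chow 5.99 ± 1.18 in 18 neurons with them and 7.42 ± 0.60 in 15 without. The other subunits, Gria1, Gria4, Grin2d and Grin3a, went in opposite directions by diet. Grin3a averaged 3.67 ± 2.63 and 5.35 ± 3.32 in low-sodium neurons with and without the markers. In chow, Grin3a averaged 5.50 ± 2.43 and 3.62 ± 2.92 with and without them. Without the marker neurons the diet difference was 1.73 for Grin3a and -0.44 for Grin1. The part of the markers in these values was not tested.

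Auxiliary subunits of AMPA receptors, which set their trafficking and gating, were present beside the pore-forming ones. Of 15 listed genes, 13 are in the table. Cacng5, a TARP of the stargazin family, was the most abundant of them by log2(CPM + 1) and was found in all 65 neurons, at 8.40 ± 2.10 in low sodium and 8.06 ± 0.87 in chow. Cpt1c and Cnih2, which aid export of AMPA receptors to the surface, were found in 63 neurons each. Cacng2 (stargazin) was found in 43 neurons and Cacng3 in 11.

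Of these 13 genes, 2 passed a difference of 1 and none passed -1, beside 3.61% and 6.55% of all genes. They were Shisa7 (4.64 ± 3.55 in low sodium, 3.09 ± 2.50 in chow, difference 1.55) and Shisa6 (3.65 ± 3.27 in low sodium, 2.23 ± 2.68 in chow, difference 1.42), both transmembrane partners of AMPA receptors. Without the 9 neurons these differences were 0.22 and 0.65, and instead Cnih3 (1.70, against 0.96 over all cells) and Gsg1l (-1.54, against -0.55) passed the size, beside 2.84% and 6.27% of all genes. The median difference of the list was 0.52, and 0.22 without the 9 neurons.

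The 9 neurons with summed CPM over 1200000 also stood apart in some of these genes. Cacng5 ran from 9.42 to 12.28 in them, with a mean of 10.75 ± 0.92, against 7.48 ± 1.66 in the other 23 low-sodium neurons and 8.06 ± 0.87 in chow. Shisa7 averaged 8.05 ± 3.46, against 3.30 ± 2.61 and 3.09 ± 2.50. The auxiliary genes Cacng2, Cacng3, Cacng4, Cnih3 and Sacm1l went the other way, with a higher low-sodium mean once the 9 were left out. For Cnih3 that mean was 3.89, against 3.15 over all low-sodium neurons. The other auxiliary genes in the table had a lower low-sodium mean without the 9. Camk2a, the kinase that phosphorylates AMPA receptors at synapses, ran from 9.67 to 11.78 in the 9 and reached at most 8.76 in the other low-sodium neurons and 8.94 in chow. Camk2a is not an auxiliary subunit and was chosen after its values were seen. Unlike shares, these levels carry the unknown scale of the 9 neurons.

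Of 13 other ionotropic receptor genes, 11 are in the table and only Grid1, a delta receptor of synapse formation, passed the size, at 3.10 ± 2.68 in low sodium and 4.11 ± 2.40 in chow (-1.01), a count close to the 10.2% of all genes. Without the 9 neurons the difference was -2.10. Over all cells, leaving out any of 34 single neurons (17 of each diet) brought the difference of -1.01 under 1 in size. The log2 ratio of mean CPM (plus 1) over all cells was 0.0044. Kainate receptor transcripts were led by Grik4 and Grik5, found in 57 and 58 neurons, and Grik2 in 53, while Grik1 and Grik3 were found in 10 and 11. The median difference of the list was -0.10.

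Of 8 metabotropic receptor genes, 6 are in the table and none passed a difference of 1 in size over all cells, beside 10.2% of all genes. Grm7 and Grm5 were the widest, found in 60 and 58 neurons. Grm4, a presynaptic receptor, came closest at 0.99 and just passed the size without the 9 neurons at 1.00, beside 9.11% of all genes. It was found in 12 of 32 low-sodium and 6 of 33 chow neurons. The median difference of the list was 0.56 over all cells and -0.09 without the 9 neurons.

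Among 24 of 27 genes for postsynaptic scaffold and trafficking that are in the table, 4 passed a difference of 1 and 1 passed -1, beside 3.61% and 6.55% of all genes. Those above were Shank3 (1.27), Shank2 (1.26), Dlg2 (1.22) and Nptxr (1.18), and Dlg3 was below (-1.23). SHANK proteins and the DLG family anchor glutamate receptors at the postsynapse, and Nptxr clusters AMPA receptors from outside. Without the 9 neurons all 5 were under 1 in size (0.98, 0.94, 0.10, 0.23 and -0.89), while Grip1, which binds the tail of GluA2 and was named after its values were seen, passed at -1.06, beside 6.27% of all genes. The median difference of the list was 0.48 over all cells and -0.08 without the 9 neurons.

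Adarb1 encodes ADAR2, the enzyme that edits the Q/R codon of Gria2 shown above. Its transcript had a lowest, median and highest log2(CPM + 1) of 0, 5.52 and 8.50 in low sodium and 0, 3.59 and 8.09 in chow. It was found in 29 of 32 low-sodium and 26 of 33 chow neurons. The mean level was 5.09 ± 2.15 in low sodium and 3.85 ± 2.49 in chow, a difference of 1.24, so the ranges overlapped fully while the medians lay 1.93 apart. The difference was 1.40 without the 9 neurons. It was above 0 in all 13 other settings, which reuse the same cells, from 0.70 to 1.93, and at 1 or more in 10 of them. Of 3 listed editing genes, 2 are in the table (Adarb2 is not), and 1 passed a difference of 1. Over all genes 3.61% did so, and 2.84% without the 9 neurons. Adar, the related enzyme ADAR1, was found in all 65 neurons and differed by 0.26, and by -0.46 without the 9 neurons. The editing of Gria2 itself was not measured.

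**Figure D4:**
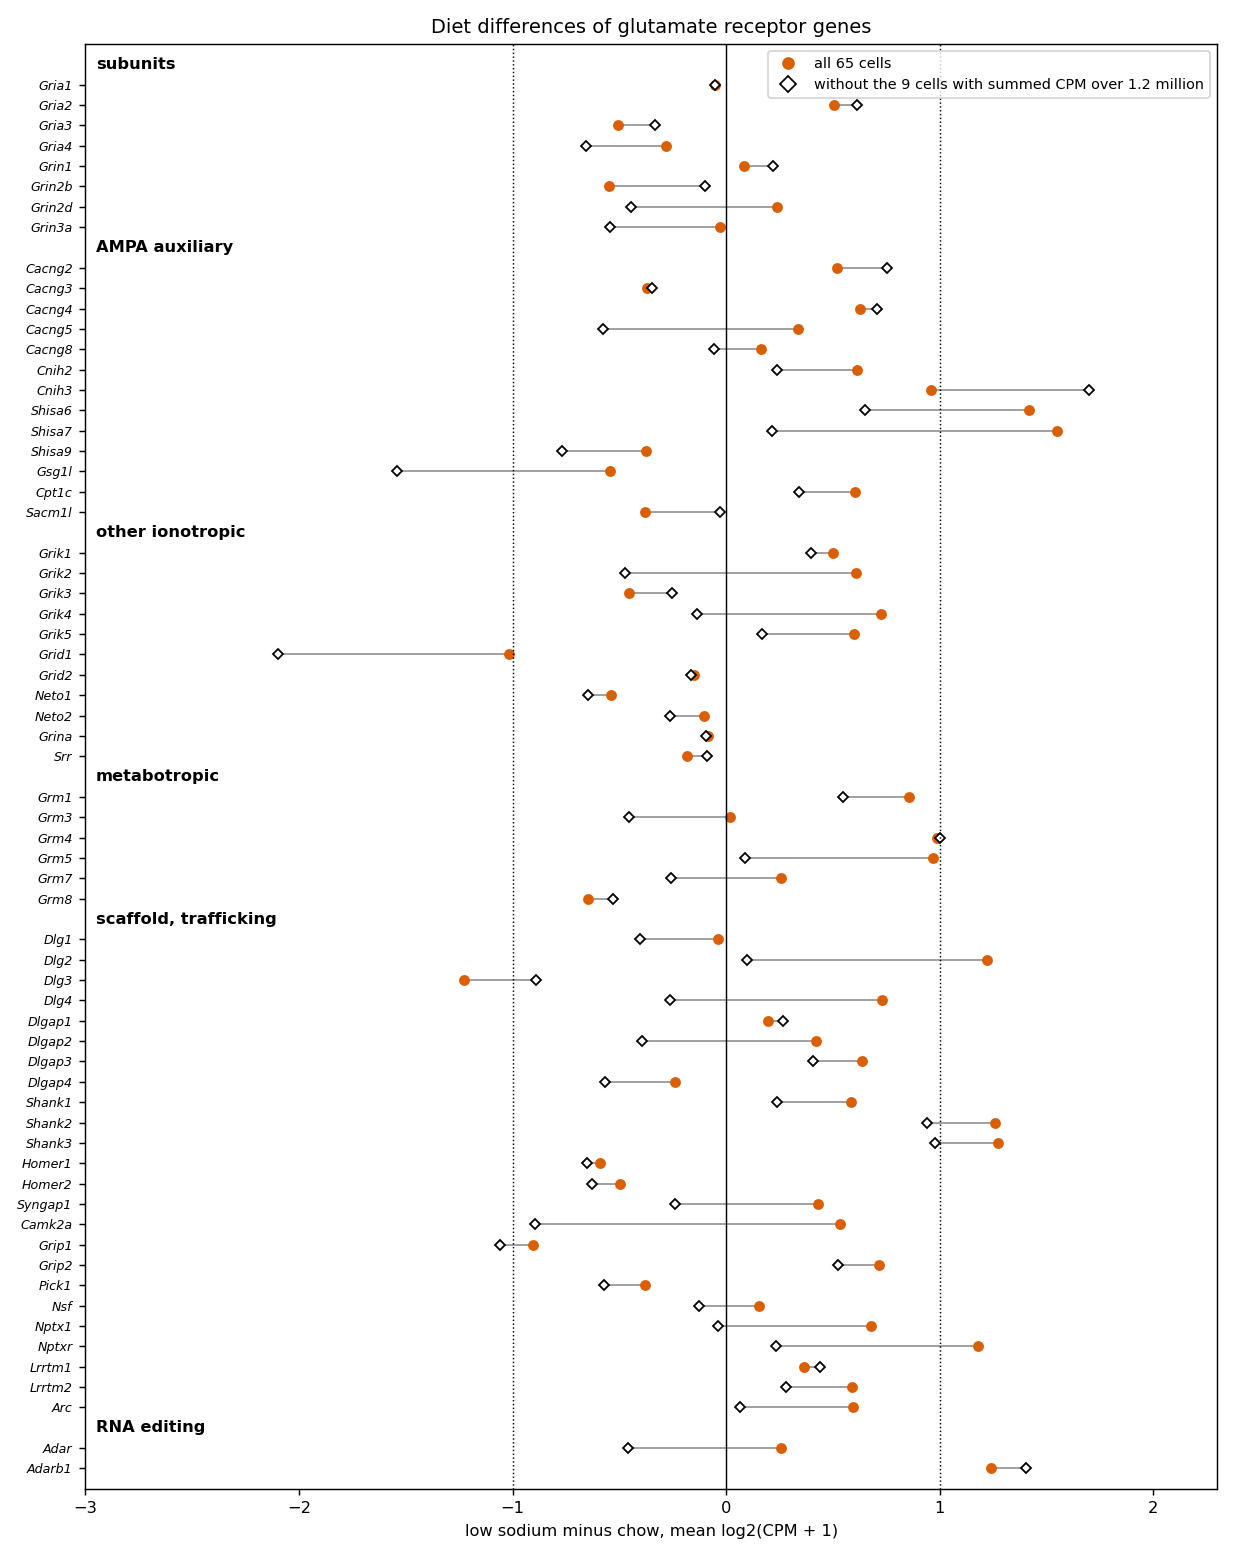
Difference in mean log2(CPM + 1), low sodium minus chow (horizontal axis), of the 8 subunits and of the listed glutamate receptor genes in the table, with all 65 neurons (filled circles) and without the 9 neurons with summed CPM over 1200000 (open diamonds). Dotted lines mark a difference of 1 in size, which no subunit passes. Adarb1 lies beyond the line with both sets of neurons, at 1.24 and 1.40, and so does Grid1, at -1.01 and -2.10.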

How the data were processed

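The authors deposited log2(CPM + 1) per gene and neuron. Per the submitters' processing notes, HISAT2 2.0.5, Picard 2.5.0, SAMtools 0.1.19, featureCounts 1.4.6 and bcl2fastq were used, with the builds mm10 and GRCm38. No source used here gives the total behind CPM, the annotation or the use of strand. Of 12015 lines, those that share a name or carry a serial number were left out, which left 11875 genes.

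CPM were computed back from the log2 values. Low CPM of a neuron came in equal steps (all values up to 20 steps fell within 0.1 steps of a whole number), and each step was read as 1 sequencing read. A transcript was detected above 0. Intervals are exact (Clopper-Pearson) 95% binomial and cover counting error over cells only. Lengths, codons and sequences came from GENCODE M21, whose genes carry the same symbols. The pore-loop stretch of Grin2b is not reported here. Diet differences are differences of mean log2(CPM + 1), called at 1 in size. The pseudocount of 1 CPM understates differences of low genes. The lists and subunits were chosen with earlier results of these data known. Named genes were the subunits, the listed receptor, auxiliary and editing genes, scaffold genes past 1 in size, and the 3 genes most like Gria2 and Grin1. Only the step for diet differences was tested on simulated counts, which were scaled to each neuron's own reads. Python 3.11.15, numpy 2.4.6, pandas 2.3.3, scipy 1.17.1 and matplotlib 3.10.9 were used.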

Additional observations from a re-analysis of the deposited data

How the results depend on the processing

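No paired analysis was possible because neuron numbers only name cells, and no test between diets was run. All 104 other values of the subunits' diet differences, and all 48 of the differences in share, moved by less than the SD over cells. This is a wide bound, and within it Grin3a went from -0.03 to 1.73 without the neurons with markers of another cell type. Every subunit but Gria2 changed sign in some setting. Leaving out single neurons moved the differences in level to between -0.68 and -0.34 for Gria3, 0.41 and 0.59 for Gria2, and -0.41 and -0.07 for Gria4. The number of genes with a diet difference of 1 or more was 429, and 262 with the CPM of each neuron rescaled to the same sum, while that at -1 or less was 778, and 1138 with rescaling. With coding length the mean shares were 42.5% for Gria2 and 18.3% for Grin2b, and with no length correction 23.8% for Grin2b. With coding length the order per kilobase had Gria2 at 1, Gria1 at 2, Gria4 at 3 and Grin1 at 4, and with the length of all exons joined Gria4 stood at 2, Gria2 at 3 and Grin1 at 4. Thinned to 50000 reads, 76.9% of neurons held Gria3, 90.8% Grin1, 83.1% Grin2b and 15.4% Grin2d. Grin1 was found in 100% without the 9 neurons of high summed CPM, and 16.9% held at least 10 CPM of Grin2d. Among the other named genes, Grid1 had a log2 ratio of mean CPM plus 1 of 0.0044, and Shisa7 a difference of -0.54 with thinning and without the 9 neurons; the cause was not tested. Thinning together with leaving out the 9, lengths of joined exons, settings for differences in share and leaving out single neurons were chosen after seeing the data. Levels under the CPM that a single read stands for (0.160 to 16.1) cannot be seen in a neuron, and differences between animals cannot be told apart from those between diets.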
